A study of Mus musculus with 36 samples.

Results

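The cytosolic ribosomal protein genes were followed in the RNA of 3 olfactory tissues of the mouse. A gene was a member when its symbol was Rpl or Rps with digits and at most 1 letter after them, or was Rplp0, Rplp1, Rplp2 or Rpsa. Pseudogenes (symbols with -ps) and the S6 kinases (Rps6k) carry other symbols and were not members. The rule gave 82 members of 24803 listed genes, 32 for the small and 50 for the large subunit, and it used no measured value. The 36 libraries came from C57BL/6 mice aged 6 months that had been weaned at 3 weeks and kept 4 to a cage, and the labels name no allele or agent for any group. The tissues were the main olfactory epithelium (MOE), which lines the nasal cavity and holds the olfactory sensory neurons, the vomeronasal organ (VNO), which holds the sensory neurons for pheromones, and the olfactory bulb (OB), the part of the forebrain to which both project. Each tissue had 4 groups of 3 pools of animals, namely females caged with females (SF, sex-separated), males caged with males (SM, sex-separated), and females (CF) and males (CM) from cages that held both sexes (sex-combined). The values were FPKM, the fragments of a transcript scaled by its length in kilobases and by the mapped fragments of the library, summed here over all transcript entries of a gene.

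Cytosolic ribosomal proteins are made in the cytoplasm, imported into the nucleolus and assembled there with ribosomal RNA into the small (Rps) and large (Rpl) subunits. Most of them sit in the ribosome as a single copy, so cells make them in matched amounts, and their messages are among the most abundant of most tissues. Many of these messages start with a C and a run of pyrimidines, the 5′ terminal oligopyrimidine (TOP) motif, through which mTOR signalling sets their translation. Ribosomal protein messages have also been copied back into the genome many times, and the resulting processed pseudogenes lack introns and resemble the parent's message. A short read from such a message can therefore fit several places.

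The libraries had been depleted of ribosomal RNA, which leaves the messages of ribosomal proteins in place. The deposited confidence limits corresponded to 3016524 to 6779893 estimated fragments per library over all genes and to 15619 to 36781 over the members. Markers told VNO and OB from the other tissues. Omp (mature olfactory sensory neurons) was lowest in OB, at 27.6 to 42.7 FPKM. Trpc2 (vomeronasal transduction channel) had 33.3 to 50.4 FPKM in VNO and at most 1.23 elsewhere. Gad1 (inhibitory neurons) had 155 to 208 FPKM in OB and at most 2.09 elsewhere. No marker high in MOE alone is given here. CM replicate 3 of MOE stood apart, since it was the lowest MOE library for 75.3% of all genes, at a median of 62.8% of the mean of the other MOE libraries. In the study's alignment summary it also had the lowest share of concordantly aligned pairs among the MOE libraries. The part of alignment in its low values was not tested. The entry list of the MOE tables was not that of the VNO and OB tables, with 24748 genes in MOE and 24739 in both others, although the members had the same entries in all. Tissue and the making of the tables cannot be told apart in any difference between MOE and another tissue.

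The levels of the members spanned from 0 to above 300 FPKM in the same tissue. Rpl41, a very short protein of the large subunit, was the highest in MOE with a mean of 313 FPKM (203.8 in VNO and 176 in OB). Rplp1 of the P stalk, the flexible arm that recruits elongation factors, had means of 273, 200.5 and 227 FPKM in MOE, VNO and OB. Rpl8, near the peptidyl transferase centre, had 268, 207 and 223 FPKM. These 3 genes held 29.0% of the summed FPKM of all 82 members in MOE, 26.4% in VNO and 27.9% in OB, and the 10 highest held 61.6%, 58.0% and 58.1%. At the other end, 21 members had a mean under 1 FPKM in MOE and 12 in each of VNO and OB. Over all listed genes 51.1%, 50.1% and 53.6% were under 1 FPKM. The median member had 9.87, 11.8 and 11.2 FPKM in MOE, VNO and OB. Small subunit members had medians of 12.7, 16.6 and 16.1 FPKM and large subunit members of 8.50, 10.6 and 11.1 FPKM. The order of the members was much alike between VNO and OB (Spearman's rho 0.964 over 82 members, a description across genes that share length and copies) and less so between MOE and VNO (0.836) or MOE and OB (0.8365).

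**Figure D1:**
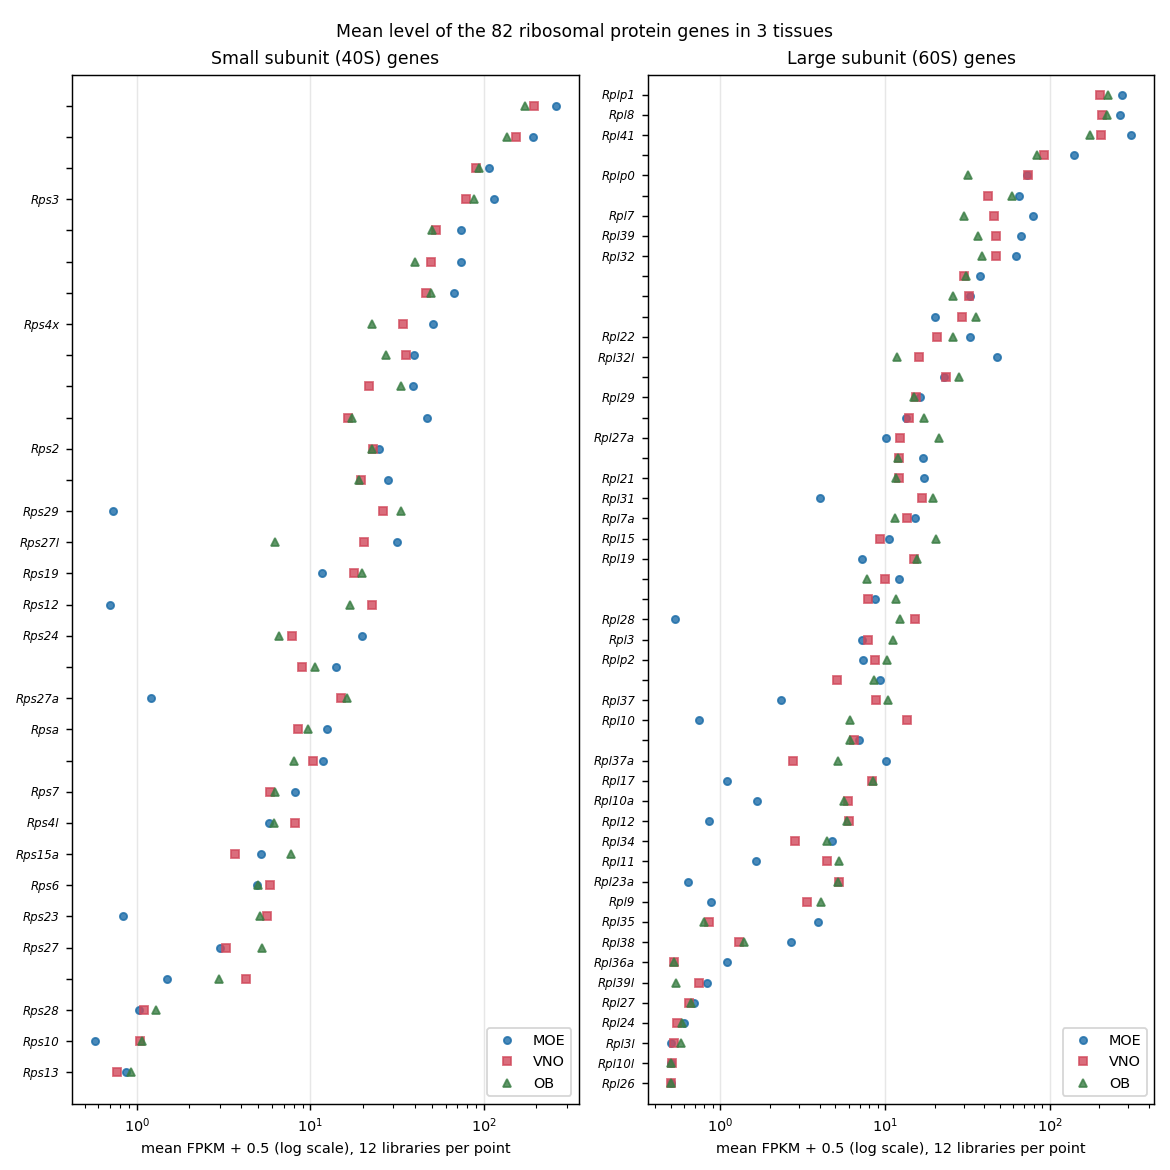
Mean FPKM of the 82 members in each tissue, with members on 1 axis by subunit, named where the text describes them, and FPKM on the other. The points of a member mostly lie close together across tissues while members spread from 0 to 313 FPKM, and a group of members has its MOE point far below the points of VNO and OB.

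One member, Rpl26 of the large subunit, was listed at 0 in all 36 libraries, 18 were at 0 in 1 to 35 libraries and 63 in none. Rpl10l, a testis paralog of Rpl10 without introns, was at 0 in 35. The muscle paralog Rpl3l was at 0 in 11 MOE, 9 VNO and 2 OB libraries, and Rpl39l in 0, 1 and 9. Rpl36a was the reverse of most, with no zero in MOE but 10 in VNO and 10 in OB. Members of every ribosome were also involved, with zeros in MOE, VNO and OB counted at 10, 0 and 0 for Rpl28, 7, 0 and 0 for Rps10, 6, 0 and 0 for Rps29 and 4, 0 and 0 for Rps12. Rpl24 had 3, 8 and 5 zeros, Rpl35 4, 4 and 2, Rpl27 2 in each, Rpl34 1, 1 and 0, Rps13 1, 1 and 0, and Rpl23a 3, 0 and 0. Rpl12, Rpl38 and Rps23 were at 0 in 1 MOE library each and Rps28 in 2 VNO libraries. In all, 16 members had a zero in MOE, 11 in VNO and 8 in OB. Ribosomal proteins such as L26 are needed by every dividing and growing cell, so a 0 here says only that the gene was listed at 0.

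The copies of each member were counted with the coding sequences of GENCODE M21, cut into windows of 50 bases, the length of a read. Rps4l, which has no coding sequence there, was cut over its whole transcript. A window was unique when no transcript of another annotated gene held it with at most 2 mismatches. For the other members untranslated parts were left out, and for all the pairing of reads was. A member without a unique window may therefore still hold fragments that fit only 1 place. Rpl32l had no coding windows in GENCODE M21. Of 81 members with windows, 60 had no unique window, 21 had at least 1 and 7 were unique in at least 50% of their windows. Among those 7 were Rpl3l (100%), Rpl8 (90.3%), Rpl39l (74.0%), Rps3 (56.9%), Rps27l (54.5%) and Rps4l (53.8%). On a coarser grid of windows that could be run on all genes, 77.5% of 80 members but 5.38% of 20556 genes had no unique window. The median member shared its median window with 6 other genes, and the highest were Rpl21 with 59, Rpl7a with 52, Rpl29 with 43 and Rps2 with 41. The middle coding windows of the members on which the results turn are shown to let a reader see how close the copies are, with bases that differ from the nearest annotated copy in capitals. Rpl8 had no copy within 2 mismatches, Rps3 had 1, and each of the others was present without a mismatch in at least 1 other gene.
Rpl8 (bases 361 to 410 of 771, no other gene): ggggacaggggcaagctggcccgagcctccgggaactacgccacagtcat
Rps3 (bases 340 to 389 of 729, 1 other gene): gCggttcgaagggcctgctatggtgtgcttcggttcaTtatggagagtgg
Rpl35 (bases 160 to 209 of 369, 6 other genes, 3 exact): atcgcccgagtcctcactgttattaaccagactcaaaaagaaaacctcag
Rpl37a (bases 114 to 163 of 276, 5 other genes, 3 exact): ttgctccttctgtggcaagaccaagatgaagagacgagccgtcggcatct
Rpl28 (bases 181 to 230 of 411, 5 other genes, 3 exact): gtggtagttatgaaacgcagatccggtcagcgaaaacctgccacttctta
Rps29 (bases 60 to 109 of 168, 4 other genes, 1 exact): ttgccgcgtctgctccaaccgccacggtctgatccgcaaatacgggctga
Rps12 (bases 174 to 223 of 396, 20 other genes, 9 exact): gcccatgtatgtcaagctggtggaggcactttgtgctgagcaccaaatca
Rpl26 (bases 193 to 242 of 435, 6 other genes, 3 exact): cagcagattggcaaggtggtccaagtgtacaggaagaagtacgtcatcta

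Members with at least 1 unique window had median levels of 62.3, 41.4 and 38.4 FPKM in MOE, VNO and OB. Members without one had medians of 6.80, 8.32 and 9.86 FPKM. The share of unique windows and the level rose together weakly (Spearman's rho 0.356, 0.347 and 0.323 over 81 members). Rpl41 reached 313 FPKM without a unique window, but its short coding part gave only 26 windows and its untranslated parts were not searched. The part of the copies in the low and zero levels was not tested, because the assignment of reads with several matches is not given in the sources used here. Some loci overlapped. In the mm9 coordinates of the files 34 members overlapped another listed gene (6 of the 19 with a zero and 28 of the 63 without), of which 22 overlapped a small nucleolar RNA gene in an intron and 16 a gene of another kind. Rpl26 (chr11:68715068-68718036) lay over the gene model Gm15772, Rpl34 over Rpl34-ps1, Rps27 over Rps27rt, Rpl35 over Wdr38 and Rps27a over Clhc1. Overlapping members had medians of 8.50, 10.6 and 10.9 FPKM in the 3 tissues and free members 11.3, 13.3 and 11.5 FPKM.

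The TOP motif was looked for at the RefSeq starts of GRCm38.p6, as a C at the start followed by at least 4 pyrimidines. It was found in 14 of 61 members with a promoter (23.0%) against 813 of 27025 genes (3.01%), and, among genes with 1 start, in 12 of 51 members (23.5%) against 2.47% of 22862 genes. The letters CCGGAAG, of the kind that ETS factors read, were present on either strand of the 300 bases around the start (250 before, 50 after) in 25 of 61 members (41.0%) and in 9.93% of all genes. The letters AAGATGGC, of the kind that YY1 reads, were present in 5 members (8.2%) and in 3.19% of all genes. Annotated starts can lie some bases from the true one, so a missing match says only that these letters were not in the window. The starts are shown for members described below, first 5 with the motif and then 5 without it, as 10 bases before the start and 20 from it, with the pyrimidine run from the start in capitals and the coordinates of the promoter before them.
Rpl35 (chr2:39005082-39005381, minus strand): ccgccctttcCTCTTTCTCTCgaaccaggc
Rpl28 (chr7:4792715-4793014, plus strand): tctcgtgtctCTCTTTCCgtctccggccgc
Rps27 (chr3:90213599-90213898, minus strand): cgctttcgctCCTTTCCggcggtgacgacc
Rplp2 (chr7:141447401-141447700, plus strand): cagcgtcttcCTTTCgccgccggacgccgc
Rpl15 (chr14:18270937-18271236, minus strand): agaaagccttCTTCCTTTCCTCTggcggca
Rpl37a (chr1:72711010-72711309, plus strand): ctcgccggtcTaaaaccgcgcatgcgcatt
Rps12 (chr10:23787160-23787459, minus strand): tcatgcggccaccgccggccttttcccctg
Rpl10 (chrX:74270566-74270865, plus strand): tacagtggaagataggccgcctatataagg
Rplp0 (chr5:115559217-115559516, plus strand): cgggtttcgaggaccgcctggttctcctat
Rpl41 (chr10:128549119-128549418, minus strand): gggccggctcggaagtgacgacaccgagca

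Summed over the members, MOE was the highest tissue as deposited, with 2947 ± 431 FPKM (SD, n = 12) against 2312 ± 206 in VNO and 2243 ± 204 in OB. The MOE libraries ran from 1747 to 3478 FPKM with a median of 3011, those of VNO from 1994 to 2756 and those of OB from 1918 to 2501. The lowest MOE value was that of CM replicate 3, without which MOE had 3056 ± 218 FPKM, and even then the lowest MOE library (2738 FPKM) reached below the highest of VNO. This order rested on the scaling. Over the 73 members tested, MOE, VNO and OB had 2728 ± 191, 2660 ± 168 and 2073 ± 126 with upper quartile scaling (a factor per library) and 2767 ± 215, 2529 ± 159 and 2151 ± 142 with the median ratio, but 2378 ± 161, 2843 ± 165 and 2257 ± 85.5 with quantile normalization, where VNO was the highest. In estimated fragments, again without rescaling, the members took 0.596% ± 0.0243 of each MOE library, 0.4998% ± 0.0288 of each VNO library and 0.465% ± 0.0233 of each OB library. As deposited both subunits showed the order of MOE, VNO and OB, with sums of 1234, 975 and 922 FPKM for the small and 1713, 1337 and 1321 FPKM for the large subunit. In bulk tissue fewer cells of a type and less RNA per cell cannot be told apart. Markers of dividing cells were lower in VNO for 6 of 6 tested genes and in OB for 5 of 6, and their part in the sums was not tested. Of all genes tested, 48.6% were lower in VNO and 45.7% in OB than in MOE at an adjusted p under 0.05. The other lists of cell type markers are not set beside the sums here.

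**Figure D2:**
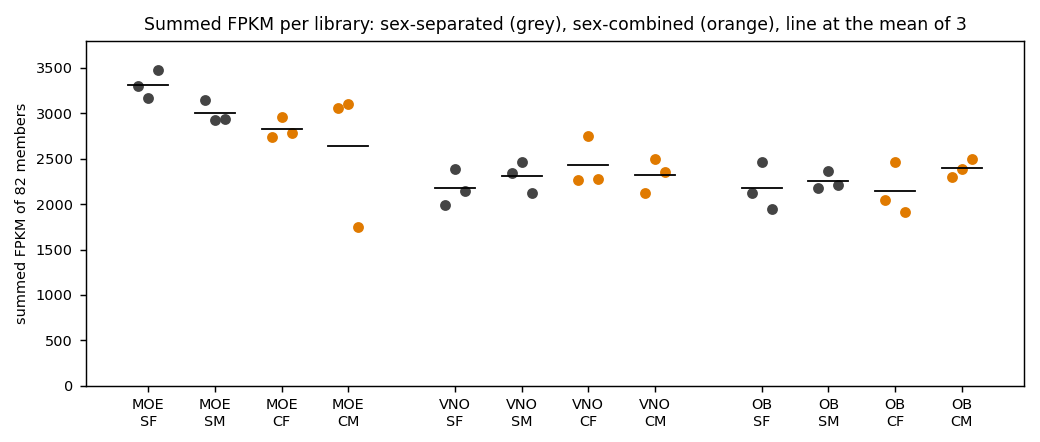
Summed FPKM of the 82 members in each of the 36 libraries, by tissue and group (sex-separated in grey, sex-combined in orange), each point a library and each line the mean of 3. MOE lies mostly above VNO and OB, and CM replicate 3 of MOE, at 1747 FPKM, lies below all other libraries.

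Between VNO and MOE, as deposited, a majority of the members was somewhat lower in VNO. Another set was listed much lower in MOE than in VNO, in part near 0 in MOE. Of the 73 members past a mean of 0.5 FPKM, 58 differed at an adjusted p under 0.05 in limma, 21 higher and 37 lower in VNO, where 82.6% of all 14642 genes tested differed, 34% higher and 48.6% lower. With a log2 difference of at least 1 in addition, 16 were higher and 5 lower, where 21.6% of all genes passed, 9.73% higher and 11.8% lower. The median member difference was -0.19 on the log2 scale and that of all genes -0.15. With quantile normalization the split turned to 40 higher and 15 lower, with upper quartile scaling to 32 and 27, with the median ratio to 27 and 31 and with the members' median set equal to 19 and 46, so the direction of the small differences rested on the scaling. The log2 differences of at least 1 kept their direction and passed under every setting tried. For 14 members every VNO library was above every MOE library and for 3 every one was below (34.8% of all genes did not overlap). Without CM replicate 3 of MOE these counts were 14 and 17 (50.6% of all genes).

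The largest differences between VNO and MOE were those of Rps29, Rps12 and Rpl28. Rps29 (chr12:70258709-70260173), a zinc-binding protein of the small subunit, was listed at 0 in 6 MOE libraries and at 0.282 to 1.06 FPKM in the others, with 18.6 to 37.9 FPKM in VNO (median 25.9) and 27.0 to 47.1 in OB (median 31.7). The groups did not overlap, and its log2 difference was 5.24 for VNO (SE 0.152, limma adjusted p 2.94e-23) and 5.601 for OB. Rps12 (chr10:23504989-23507015), a small subunit protein whose gene overlaps Snora33 and Snord100, ran from 0 to 0.517 FPKM in MOE, from 17.8 to 25.9 in VNO and from 13.4 to 20.3 in OB. No MOE library came near the others, and the log2 differences were 5.06 (SE 0.115, limma adjusted p 7.10e-26) and 4.63. Rpl28 (chr7:4744567-4746149), a large subunit protein, was at 0 in 10 MOE libraries and at 0.177 and 0.188 FPKM in the other two, against 10.4 to 18.4 FPKM in VNO and 8.94 to 16.04 in OB. Its log2 differences were 4.83 (SE 0.0744, limma adjusted p 4.04e-30) and 4.54. In estimated fragments the MOE libraries held at most 3 of Rps29, 3 of Rps12 and 1 of Rpl28, while VNO and OB libraries held 44 to 205. All log2 differences were taken after adding 0.5 FPKM, which makes them smaller than the ratio of the levels for genes near 0.

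Rpl10 (chrX:71516155-71518474), a late-joining large subunit protein, had 0.0882 to 0.403 FPKM in MOE, 10.5 to 17.9 in VNO and 3.57 to 6.67 in OB. Its 3 tissues did not overlap, with log2 differences of 4.20 for VNO and 3.05 for OB against MOE and -1.16 for OB against VNO. Rps27a (chr11:29445842-29448040), which encodes ubiquitin fused to a small subunit protein, ran from 0.332 to 0.990 FPKM in MOE, from 10.7 to 17.4 in VNO and from 13.1 to 20.7 in OB. VNO and OB overlapped for Rps27a, and both stood above MOE by 3.64 and 3.76 on the log2 scale. Smaller gaps to MOE in the same direction were found for Rpl23a (3.07 for VNO and 3.02 for OB), Rpl17 (2.96 and 2.97), Rpl12 (2.86 and 2.82), Rps23 (2.73 and 2.60), Rpl31 (2.08 and 2.30), Rpl37 (1.99 and 2.25), Rpl9 (1.93 and 2.202), Rpl10a (1.84 and 1.76), Rpl11 (1.49 and 1.74) and Rpl19 (1.19 and 1.26). Both comparisons share the MOE libraries. Rpl36a (chrX:131120193-131122601) went the other way at a low level, with 0.602 FPKM as its mean for MOE and 0.025 and 0.026 FPKM for VNO and OB.

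**Figure D3:**
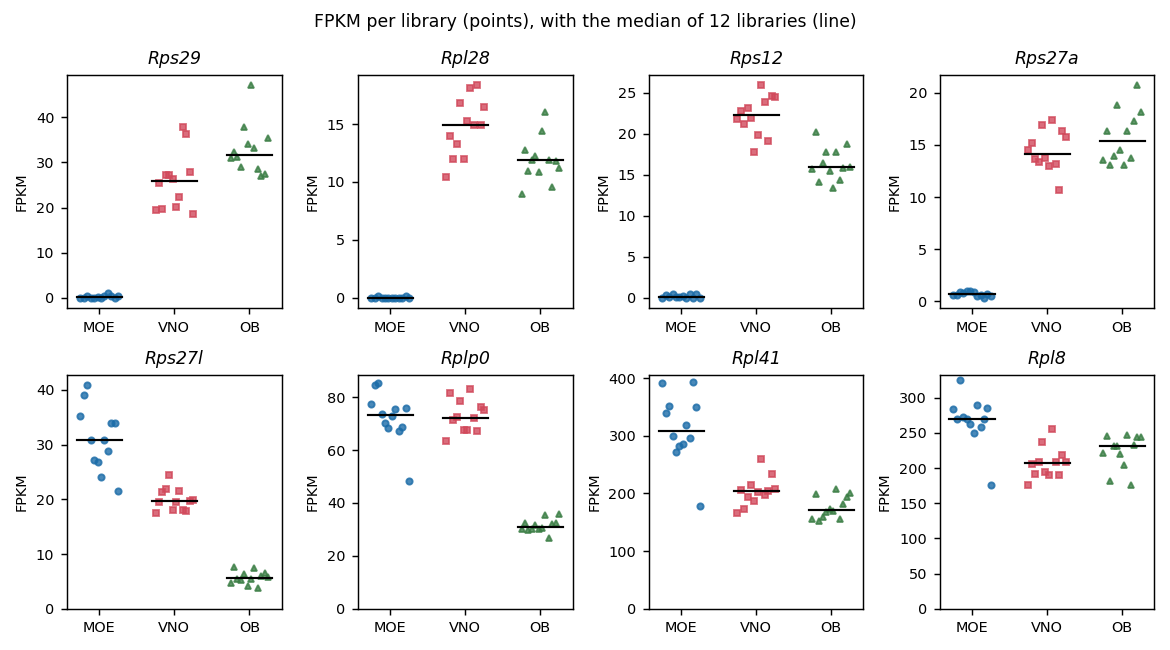
FPKM of 8 members per library in MOE, VNO and OB (12 points each), with a line at the median. Rps29, Rpl28, Rps12 and Rps27a lie near 0 in every MOE library, Rps27l and Rplp0 are lowest in OB, and Rpl41 and Rpl8 overlap between all tissues, for MOE and OB only through CM replicate 3.

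Members lower in VNO than in MOE by a log2 difference of at least 1 included Rpl37a (-1.80), Rpl32l (-1.49), Rpl35 (-1.43) and Rps24 (-1.13). Rps24, a small subunit protein, had 5.52 to 34.6 FPKM in MOE, 6.48 to 9.31 in VNO and 4.25 to 7.55 in OB. MOE was the widest of the tissues here, and its lowest library, CM replicate 3, was the only one to overlap the others, with the next at 9.44 FPKM. Rpl32l (chr10:19928245-19928836), an Rpl32-like locus inside Map7, had 27.1 to 87.3 FPKM in MOE, 12.2 to 19.7 in VNO and 8.31 to 13.8 in OB, with MOE above both others throughout. Its copies could not be counted, since it had no coding windows. Rpl37a and Rpl35 also differed between the housings in MOE, as given below. The well resolved Rpl8 had 175 to 325 FPKM in MOE, and 176 to 256 and 176 to 247 FPKM in VNO and OB, so the tissues overlapped. Its lowest MOE value was that of CM replicate 3, and the next, 250.4 FPKM, still lay below the highest of VNO. Its log2 differences to MOE were -0.36 in VNO and -0.26 in OB, and both passed as deposited. Rpl41 had -0.60 and -0.81. With quantile normalization, which sets the libraries' distributions equal, the VNO differences turned to 0.43 for Rpl8 and 0.20 for Rpl41, and that of Rpl8 in OB to 0.23, so no direction is given for these abundant members.

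Against MOE, 62 of 73 members differed in OB, 26 higher and 36 lower (85.1% of all genes, 39.4% higher and 45.7% lower), and with the added limit of 1 on the log2 scale 16 were higher and 8 lower (38.4% of all genes, 17.3% higher and 21.1% lower). The median member difference was -0.18 and that of all genes -0.065. The split was 26 to 38 with upper quartile scaling, 30 to 30 with quantile normalization, 26 to 37 with the median ratio and 23 to 43 with the members' median set equal. Libraries did not overlap for 17 higher and 5 lower members (51.2% of all genes), and for 17 and 20 without CM replicate 3 (59.9% of all genes). The largest fall was that of Rps27l, at -2.34 (SE 0.0928, limma adjusted p 2.52e-20). Rpl32l fell by 1.94 on the log2 scale, Rpl35 by 1.46, Rps24 by 1.40, Rpl7 by 1.36, Rplp0 by 1.18 and Rps4x by 1.13. Rpl27a rose by 1.06.

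Between OB and VNO, whose tables share their entry list, fewer members differed as deposited than between either tissue and MOE. Of 73 members 40 passed, 20 in each direction (85.8% of all genes, 48% higher and 37.8% lower), and 2 higher and 3 lower also passed the limit of 1 on the log2 scale (39.2% of all genes, 19% higher and 20.2% lower). Upper quartile scaling gave 10 higher and 46 lower, quantile normalization 13 and 42, the median ratio 11 and 34, and the members' median set equal 22 and 22. With quantile normalization the total was thus no lower than for VNO against MOE. The median difference was 0.003 for the members and 0.124 for all genes. Libraries did not overlap for 4 higher and 4 lower members (62.6% of all genes). Rps27l, an S27 paralog that p53 induces, had 17.6 to 24.5 FPKM in VNO and 3.87 to 7.65 in OB. Its libraries did not overlap, and the log2 difference was -1.73 (SE 0.0928, limma adjusted p 5.75e-17). Rplp0, the base of the P stalk, had 63.5 to 83.0 FPKM in VNO and 26.8 to 35.7 in OB, a difference of -1.20 (SE 0.0649, limma adjusted p 6.92e-17). Rpl15 was higher in OB by 1.13 and Rps15a by 1.07.

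**Figure D4:**
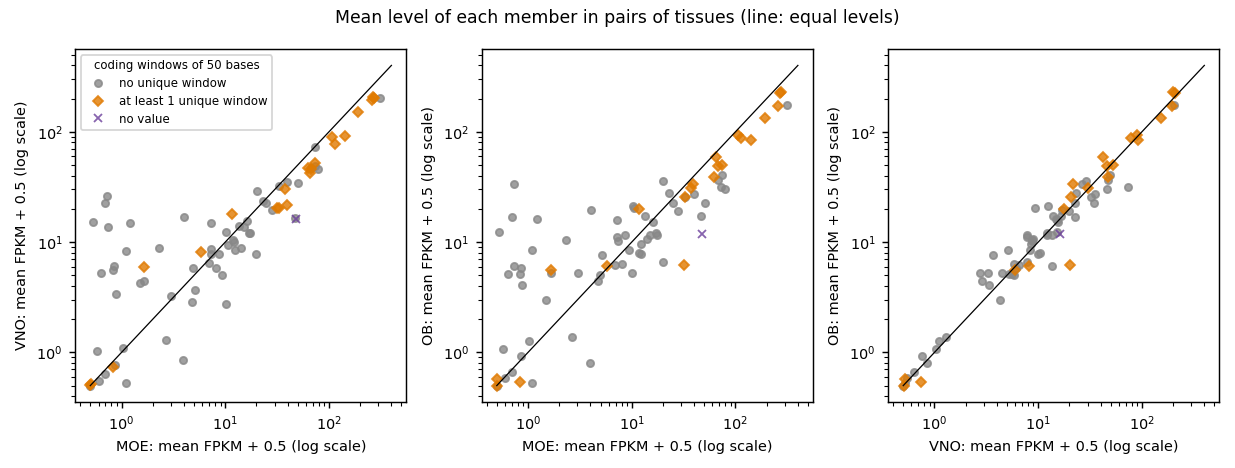
Mean FPKM of the members in VNO against MOE, OB against MOE and OB against VNO, on log axes, with members that hold at least 1 unique window in a colour of their own. Members far above the diagonal are seen in both panels with MOE, while the OB against VNO panel lies close to it.

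The split by copies was made after the values were seen and is given as a description. Most members past the limit of 1 on the log2 scale had no unique window, and so did most members tested. In VNO against MOE 1 of 18 members with a unique window and 19 of 54 without one passed this limit (21.6% of all genes). Their log2 differences ran from -0.82 to 1.84 (median -0.42) and from -1.80 to 5.24 (median -0.07). In OB against MOE 2 of 18 and 21 of 54 passed (38.4% of all genes). In OB against VNO 1 of 18 and 4 of 54 did (39.2% of all genes). Rps27l, lowest in OB, is unique in 54.5% of its windows. Other genes with copies, looked at after the values were seen, differed from each other across tissues. Ppia (cyclophilin A), which has no unique window, was at 0 in 8 of 12 MOE libraries, with means of 0.035, 18.9 and 35.8 FPKM in MOE, VNO and OB. Rps27rt, a near copy of Rps27 listed over the same locus, was listed at 0 in all 12 MOE libraries and had means of 17.1 FPKM in VNO and 14.0 in OB. Rps3a1, a ribosomal gene outside the symbol rule and also without a unique window, had its highest mean in MOE, and Gapdh, unique in 5.6% of its windows, had means of 1.17, 2.24 and 5.37 FPKM. The part of the copies or of the entry lists in the tissue differences was not tested.

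The genes of the P stalk differed from each other between tissues. Rplp0 had a log2 difference of 0.02 between VNO and MOE (limma adjusted p 0.74), which became 0.32, 0.49 and 0.23 with upper quartile scaling, quantile normalization and the median ratio and -0.21 with the members' median set equal, each of which passed, so no direction is given. It fell in OB against both. Rplp1 had -0.44 in VNO and -0.25 in OB against MOE, which passed as deposited but turned to 0.34 and 0.25 with quantile normalization. Rplp2, the partner of Rplp1, had means of 6.83, 8.14 and 9.78 FPKM and was higher in OB than in MOE by 0.50 (limma adjusted p 0.000722), with 0.25 for VNO against MOE (limma adjusted p 0.0783). With the members' median set equal the former was 0.28 and did not pass (limma adjusted p 0.058). The latter passed with upper quartile scaling (0.53), quantile normalization (0.51) and the median ratio (0.44). It also passed, at 0.29 to 0.31, without SF replicate 3 or CF replicate 2 of MOE, or SF replicate 1, SM replicate 3, CF replicate 2 or CM replicate 1 of VNO (limma adjusted p 0.028 to 0.0485). Rpsa, the small subunit protein also known as laminin receptor, had means of 11.9, 7.94 and 9.20 FPKM and was lower than in MOE by 0.54 in VNO and by 0.33 in OB.

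Paralogs differed from their partners in level and in tissue pattern. Rps27l had means of 31.1, 20.0 and 5.73 FPKM in MOE, VNO and OB, and Rps27 had 2.52, 2.76 and 4.76. The paralog had the higher listed mean of the pair in each tissue. Rps27 has no unique window and shares its locus with Rps27rt, however, and the sum of both was 2.52, 19.9 and 18.7 FPKM, which is above Rps27l in OB. As listed, Rps27 rose in OB by 0.79 against MOE and by 0.71 against VNO. Rpl36al, the copy of Rpl36a on an autosome without introns, had 34.0, 29.1 and 16.5 FPKM and fell in OB by 1.003 against MOE and by 0.81 against VNO, while Rpl36a had means under 1 FPKM in every tissue. The X-linked Rps4x had 50.1, 33.7 and 22.1 FPKM and its relative Rps4l, annotated as non-coding, 5.28, 7.68 and 5.63. Rpl39 had 66.8, 46.7 and 36.3 FPKM against 0.329, 0.240 and 0.036 for the germ cell paralog Rpl39l. Rpl3 had 6.73, 7.36 and 10.7 FPKM against 0.004, 0.019 and 0.079 for the muscle paralog Rpl3l. Rpl22 stood at 32.4, 20.1 and 25.2 FPKM and Rpl22l1, which Rpl22 represses in other cells, at 11.2, 7.86 and 14.7. Rpl7 stood at 78.5, 45.2 and 29.8 FPKM and Rpl7l1, a protein of the nucleolus, at 8.53, 5.52 and 6.80. Genes of the cytosolic ribosome whose symbols are outside the rule varied as widely, with Rack1 (the scaffold on the small subunit) at 164, 136 and 109 FPKM, Rps3a1 at 41.9, 25.3 and 21.9, and Fau at 2.01, 3.95 and 4.24.

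Other genes of translation were counted in the same comparisons, as deposited only. Of all genes tested, 34% were higher and 48.6% lower in VNO than in MOE. The shares were 39.4% and 45.7% for OB against MOE, and 48% and 37.8% for OB against VNO. Of 8 tested ribosomal genes outside the symbol rule, 2 were higher and 6 lower in VNO than in MOE, 3 and 4 in OB than in MOE, and 3 and 4 in OB than in VNO. Of 76 tested mitochondrial ribosomal proteins, which serve the ribosome of mitochondria, 1 was higher and 68 lower in VNO than in MOE (median -0.58), 29 and 24 in OB than in MOE (median 0.05), and 65 and 3 in OB than in VNO (median 0.62). Elongation and initiation factors counted 6 higher and 24 lower of 36 in VNO against MOE, 8 and 19 in OB against MOE, and 21 and 11 in OB against VNO. Genes of ribosome biogenesis counted 2 and 27 of 40, 16 and 11, and 33 and 3. Regulators of mTOR and of TOP messages counted 9 and 7 of 17, 8 and 6, and 10 and 5.

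Whether the members differed between the housings was asked in each tissue, with 6 sex-separated and 6 sex-combined libraries. By the study's methods, sex-separated cages stood in rooms of a single sex, and pups born in sex-combined cages were soon removed. Room, mating and litters therefore cannot be told apart from the company of the other sex. In MOE 3 of 66 members passed in limma, among them Rpl35 and Rpl37a, all lower in sex-combined mice, where 0.102% of all 13771 genes passed (14 genes) and 0.0581% were lower. Rpl35 (chr2:38857101-38860651), a protein at the tunnel exit of the large subunit, had 4.28, 7.35 and 7.43 FPKM in SF, 6.65, 5.81 and 8.44 in SM, 0 in all 3 CF libraries, and 0, 0.592 and 0.608 in CM. All 6 sex-combined libraries lay below all sex-separated ones, with a log2 difference of -3.43 (SE 0.19, limma adjusted p 2.90e-08). Rpl37a (chr1:72757834-72760387), a zinc-binding large subunit protein, had 10.2, 12.4 and 14.5 FPKM in SF, 12.5, 15.01 and 13.2 in SM, 8.21, 5.77 and 7.55 in CF, and 6.54, 6.01 and 3.59 in CM. Again the housings did not overlap, and the difference was -1.02 (SE 0.153, limma adjusted p 0.0064). It did not pass once genes of low level were kept in the test (adjusted p 0.0667). CM replicate 3 was lowest for Rpl37a, and both passed without it. Leaving out a library raised the count to 5 in 3 cases, with Rpl19 and Rpl38 lower without SF replicate 1, Rpl19 and Rpl7a lower without CM replicate 1, and Rpl7a lower and Rpl32l higher without CM replicate 3.

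**Figure D5:**
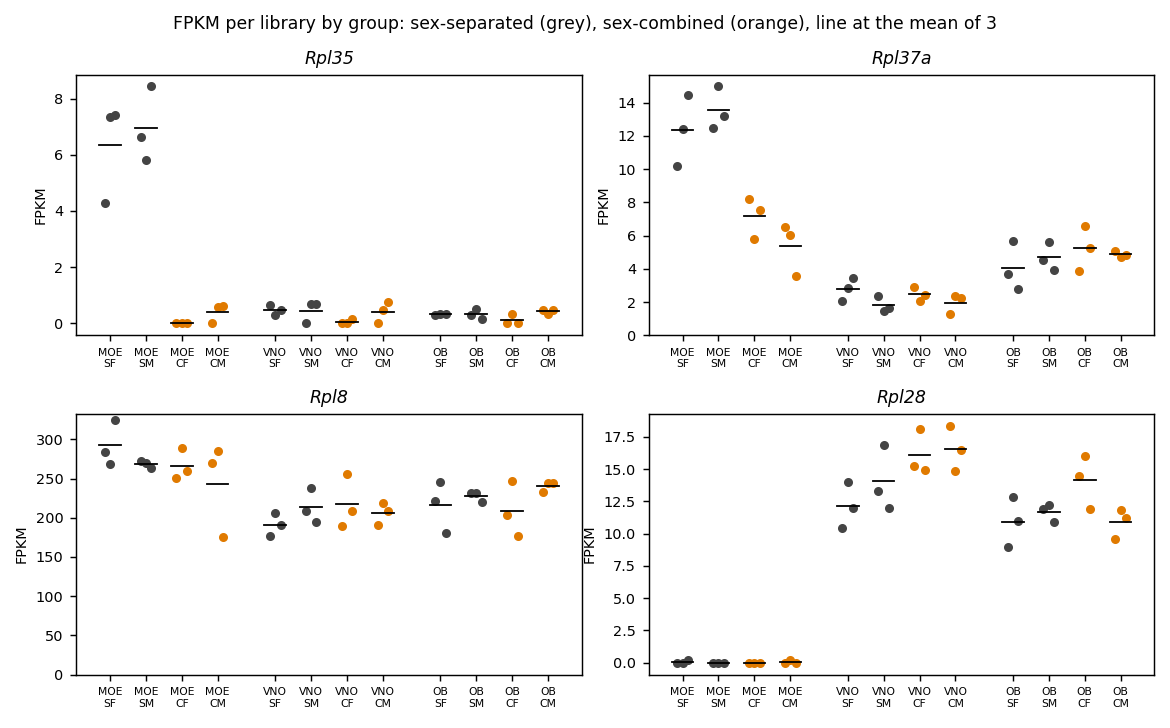
FPKM of Rpl35, Rpl37a, Rpl8 and Rpl28 in each library by tissue and group (SF and SM in grey, CF and CM in orange), each point a library and each line the mean of 3. In MOE Rpl35 and Rpl37a are lower in both sex-combined groups than in both sex-separated groups, in VNO and OB the housings overlap, and Rpl8 and Rpl28 overlap between the housings in all tissues.

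The sexes were also taken on their own. In females Rpl35 passed (-3.74, where 0.0363% of all genes passed and 0.0218% were lower), and Rpl37a had -0.75 with a limma adjusted p of 1. In males Rpl35 and Rpl37a passed at -3.13 and -1.29 (0.0654% of all genes passed and 0.0581% were lower). The call of Rpl37a in males was lost with genes of low level kept (limma adjusted p 0.183), with the largest entry of a gene in place of the sum (0.0782), and without SM replicate 1 (0.133), SM replicate 2 (0.28), SM replicate 3 (0.116), SF replicate 2 (0.0605) or CM replicate 2 (0.0813). The difference between the sexes in this effect did not pass for either. The sex-combined MOE levels of Rpl35 overlapped with those of VNO and OB, where Rpl35 ran from 0 to 0.773 and from 0 to 0.517 FPKM. Rpl37a ran from 1.26 to 3.44 FPKM in VNO and from 2.76 to 6.60 in OB. The effects in MOE and VNO were set against each other in a fit added after the values were seen. The housing effect in MOE minus that in VNO was -3.00 for Rpl35 (limma adjusted p 2.25e-06), and for Rpl37a, at -0.98, it did not pass (limma adjusted p 0.132), where 0.0683% of all genes passed and 0.0546% were lower. Rpl35 was so near 0 in VNO that a fall as large as that in MOE could not appear there.

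Depth and copies stood beside these genes as follows. The estimated fragments in MOE ran from 0 to 46 for Rpl35 and from 22 to 104 for Rpl37a. Neither had a unique coding window. Among the 14 genes that passed in MOE, 9 of 11 with windows were unique in under 50% of them, against 11.9% of the 13171 genes tested with windows. The 11 that were not members were Rpl34-ps1, Gstp1, Aldoart1, Aldoart2, Gstp2, Rbm3, Btf3, Bbof1, Rbis, Rn4.5s and Gm6524. Rpl34-ps1, a pseudogene by its symbol, is listed over the locus of Rpl34 itself. Gstp1 was lower and its neighbour Gstp2 higher, at 8.95 to 12.3 and 0 to 0.217 FPKM in sex-separated and 3.66 to 6.06 and 0.240 to 2.11 in sex-combined mice. Whether the members changed as messages or in how reads were shared between copies was not tested.

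The other 63 members had a median of -0.19, against -0.118 over all genes, and none passed. Without CM replicate 3 the 62 of them then tested had a median of -0.081 against -0.017. At an unadjusted p under 0.05, 14 of the 63 were lower and 1 higher, where 3.3% of all genes reached it, 2.91% lower and 0.392% higher. The nearest were Rpl7a (-0.88, limma adjusted p 0.0838) and Rpl19 (-1.03, limma adjusted p 0.164), and the 1 higher was Rpl32l (0.80, limma adjusted p 0.314). The summed FPKM of the members was 2930 to 3478 in the sex-separated and 1747 to 3108 in the sex-combined MOE libraries, and 2930 ± 166 (SD, n = 5) for the latter without CM replicate 3 against 3161 ± 210 (n = 6). None of the 10 lists of cell type markers had a gene that passed for housing in MOE. None of the lists of translation genes had one in MOE either, with 1 of 7 ribosomal genes outside the rule, 3 of 76 mitochondrial ones and 2 of 36 factors at an unadjusted p under 0.05.

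In VNO and OB no member passed for housing in limma. In VNO 3 of 73 reached an unadjusted p under 0.05 (7.57% of all genes, 7.1% higher), all higher in sex-combined mice, Rpl28 among them (0.32, p 0.0073). In OB 1 of 73 did (2.28% of all genes), Rpl11 (-0.32, p 0.047), followed by Rpl10a (0.24, p 0.14), and 0.00781% of all genes passed the adjusted test. The sums overlapped, at 1994 to 2467 and 2125 to 2756 FPKM in VNO and 1949 to 2469 and 1918 to 2501 in OB for sex-separated and sex-combined mice.

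No member differed between females and males in limma, where 0.0726%, 0.123% and 0.0625% of all genes passed in MOE, VNO and OB. At an unadjusted p under 0.05 there were 3 members in MOE (1.86% of all genes), 2 in VNO (6.73%) and 8 in OB (6.5%), the latter all lower in females (6.08% of all genes). Among them were Rps27a in OB (-0.25, p 0.02), Rps19 in MOE (-0.35, p 0.0267) and Rps7 in VNO (-0.35, p 0.0107). No member had a housing effect that differed between the sexes in MOE, VNO or OB, where 0.029%, 0 and 0.00781% of all genes passed and 8, 3 and 6 members reached an unadjusted p under 0.05 (4.59%, 5.26% and 4.12% of all genes). Nearest was Rpl37 in MOE, at 1.503 (p 0.000335, limma adjusted p 0.325), which had -1.27 for CM against SM (limma adjusted p 0.0768) and 0.24 for CF against SF.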

How the data were processed

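RNA of pooled tissue (C57BL/6, 3 pools per group, 2 mice per pool in the series' design text; the methods give another number) was made into stranded, ribosomal RNA-depleted libraries and sequenced as read pairs. Per the labels' processing notes the authors used TopHat2 2.1.0, Cufflinks 2.2.1.0 and Cuffdiff on mm9, and deposited FPKM with confidence limits for each RefSeq transcript entry and library. Symbols were found for 99.7% of entries and FPKM summed per gene. Estimated fragments were (FPKM/SE) squared, the SE being the distance to the upper limit divided by 2. They cover counting error only, and 84.7% of those from 0.5 to 1.5 lay within 0.01 of 1.

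Genes with a mean of at least 0.5 FPKM were tested on log2(FPKM + 0.5) with limma 3.58.1 (R 4.3.3, trend, Benjamini-Hochberg over all genes tested, threshold 0.05), tissues over 36 libraries and housing and sex over the 12 of a tissue. In the tissue comparisons a log2 difference of at least 1 was a further limit. Coding windows were matched with bwa 0.7.19 to GENCODE M21, and starts came from RefSeq. Code was tested on simulated data. Members, lists and tests were chosen with earlier results of these data known. Named were, per tissue contrast, the 3 members with the highest and lowest difference, the 3 highest and lowest levels, the 2 smallest p of other comparisons, members with zeros, the P stalk, Rpsa, the paralog pairs and the genes outside the rule; other names were chosen after their values were seen. Since the labels call the pools separate, n counts pools. In the study the 3 tissues came from the same mice, so libraries of different tissues share animals. The sources do not say whether pools of 1 number do, and the fit with the pool as a block is given with the alternatives. Sequences of proteins were not used here, and the values of some genes are not reported here.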

Additional observations from a re-analysis of the deposited data

Results flagged for a closer look

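The difference in housing effect passed between MOE and both other tissues for Rpl35, and between MOE and OB for Rpl37a. It was tested in 1 limma fit over the 36 libraries, added after the values were seen. For Rpl35 the effect in MOE minus that in VNO was -3.00 (SE 0.319, limma adjusted p 2.25e-06) and minus that in OB -3.31 (limma adjusted p 5.19e-07). Rpl35 was near 0 in the other tissues, at most 0.773 FPKM in VNO and 0.517 in OB. A fall as large as that in MOE could not appear there. For Rpl35 the test therefore cannot decide whether the housing effect is particular to MOE. For Rpl37a the effect in MOE minus that in OB was -1.23 (limma adjusted p 0.0188), while that in MOE minus that in VNO, -0.98, did not pass (limma adjusted p 0.132). All 6 sex-combined MOE libraries were below all 6 sex-separated ones for each of these genes. No member passed for OB minus VNO. The comparisons share the MOE libraries, and 10 of 14642 genes (0.0683%) passed for MOE minus VNO.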

How the results depend on the processing

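The direction of the bulk of the members depended on the scaling, and the cause was not tested. The median member difference between VNO and MOE was -0.19 as deposited but 0.10 with upper quartile scaling, 0.20 with quantile normalization and 0.013 with the median ratio, and that between OB and VNO went from 0.003 to -0.28 under both upper quartile scaling and quantile normalization; the median of all genes moved from -0.147 to 0.079 for VNO against MOE under upper quartile scaling. Members that passed for housing in MOE numbered 3, but 6 with upper quartile scaling, quantile normalization or the median ratio, 5 with the members' median set equal and 8 with all 36 libraries in 1 fit. Rpl35 passed in each of these. Among those added, Rpl7a was lower and Rpl32l higher (0.93 to 1.08 on the log2 scale) under the 4 scalings. With all 36 libraries in 1 fit Rpl37 passed for sex by housing in MOE (1 member, 1.503, limma adjusted p 0.036). Leaving out each library in turn gave 57 to 61, 60 to 64 and 36 to 44 members for the tissue contrasts and 3 to 5 for housing in MOE, with 5 without SF replicate 1, CM replicate 1 or CM replicate 3. The summed FPKM went to 2378 in MOE with quantile normalization, and in VNO to 2660 with upper quartile scaling, 2843 with quantile normalization and 2529 with the median ratio, scalings chosen after seeing the data. A block for the pool (tissues) or the replicate number (within a tissue) left the counts at 58, 62, 40 and 3, with 58, 62, 39 and 3 of the same members, and 0 in each other comparison. Same-numbered samples correlated at -0.24 to 0.28 in their deviations, with 5 of 36 pairs over 0.1 across tissues, 3 of 18 within MOE, 8 of 18 within VNO (all 3 of SF with SM and of SF with CF) and 2 of 18 within OB, so not every pair did and the fit without the block was kept. Small differences of abundant members turned with quantile normalization, in VNO against MOE to 0.34 for Rplp1, 0.20 for Rpl41 and 0.43 for Rpl8, and in OB against MOE to 0.25 for Rplp1 and 0.23 for Rpl8. Rplp0 in VNO against MOE, at 0.02, went to -0.21 with the members' median set equal but to 0.32, 0.49 and 0.23 with upper quartile scaling, quantile normalization and the median ratio, and ran from -0.024 (without CM replicate 3 of MOE) to 0.057 when a library was left out. A count of members held when its total stayed within a set ratio of the main one, whatever the directions. Splits between higher and lower that turned with the scaling can therefore be among those held. A median held when it moved by less than 0.195, the SD between replicates, and a sum when it moved by less than the tissue's SD. By these rules 573 values of whole comparisons held and 18 moved. Of those of single genes 3400 held, 29 gained and 10 lost a call in the same direction, and 7 reversed. Depth limited members near 0, where 1 estimated fragment decides.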
